A study of Mus musculus with 2 samples.

Results

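The transcripts described here are the FT transcripts with a single exon, 6712 of the 110003 entries (6.10%) in 1 pooled list of mouse transcripts on the mm9 genome. They were chosen by name and structure alone: the name starts with FT, and 1 exon remains after neighbouring blocks with a gap under 30 bp are joined. They made up 56.8% of the 11825 FT entries and fell into 6061 loci, a locus being the members of 1 set whose positions overlap on the same strand. The list belongs to a study of pluripotent mouse embryonic stem cells of the line V6.5, kept on irradiated fibroblasts from mouse embryos. From these cells 1 library of polyadenylated RNA and 1 library of total RNA depleted of ribosomal RNA were made, both of them marked by strand. No allele or treatment is named in the labels. The feeder fibroblasts are a possible second source of RNA. The file gives positions, strand, blocks and a score, with no value per library and no read counts, so depth is unknown, no level can be given and the libraries cannot be compared. Whether any entry was assembled from these libraries is not stated, and the meaning of FT and of the other prefixes (U, BROAD and WHITEHEAD) was not found in the sources used here.

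Long noncoding RNAs are transcripts that are capped and often polyadenylated like messenger RNAs but encode no known protein. Many are spliced, and many start close to the start of a protein-coding gene and run away from it on the other strand, an arrangement called divergent. An unspliced noncoding transcript has no splice site to fix its strand, and short unspliced pieces can come from introns or from RNA that runs on past the end of a gene. The 3′ end of a polyadenylated RNA usually lies a short way downstream of the hexamer AATAAA or its common variant ATTAAA. The properties below were set against the FT entries with more than 1 exon (5113 transcripts, 4178 loci) and the U entries with 1 exon (70404 transcripts, 69465 loci). Entries of 1 list are not replicates, so each interval or p-value describes the arrangement of this list and holds no error between cultures.

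The 3′ ends of members that could be named are shown because a hexamer near the end is a sign of the strand of an RNA that has no splice site. Each line gives the last 60 bases, 5′ to 3′, of the annotated GENCODE transcript (GRCm38) that a member matched, with AATAAA or ATTAAA in capitals where it starts and ends within the last 40 bases. Dalir (chr1:42752822-42752881, plus strand) and Pantr2 (chr1:42707072-42707131, minus strand) are noncoding genes of the Pou3f3 region. Hand2os1 (chr8:57306005-57306064, minus strand) is divergent from Hand2, a regulator of heart and limb development. Gm45112 (chr7:120629762-120629821, minus strand) is divergent from Uqcrc2, which encodes a subunit of respiratory complex III. Sox2ot (chr3:34106905-34106964, plus strand) overlaps the pluripotency gene Sox2, and Gm37587 (chr1:4499319-4499378, plus strand) is divergent from Sox17, a regulator of endoderm. The relations to coding genes (divergent or overlapping) are those of the whole annotated gene, and the matched member need not share them. The first 4 sequences hold a hexamer and the last 2 do not. They were chosen after their values were seen. Pantr2 and Hand2os1 also have at least 12 adenines in their last 20 bases, and whether priming inside such stretches placed these ends was not tested.
Dalir: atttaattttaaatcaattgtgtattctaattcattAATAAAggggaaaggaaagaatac
Pantr2: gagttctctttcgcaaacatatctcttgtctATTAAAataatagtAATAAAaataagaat
Hand2os1: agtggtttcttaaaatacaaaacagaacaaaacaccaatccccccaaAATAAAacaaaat
Gm45112: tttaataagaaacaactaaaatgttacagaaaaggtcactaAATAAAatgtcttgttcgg
Sox2ot: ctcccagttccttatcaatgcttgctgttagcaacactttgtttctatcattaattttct
Gm37587: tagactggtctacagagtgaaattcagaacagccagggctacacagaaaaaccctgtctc

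For some members the annotation has a gene at exactly the same interval but on the other strand. The following pairs give both ends of 3 such intervals, chosen after their values were seen. The line marked list strand is the 3′ end as the list orients the transcript, and the line marked annotated strand is the 3′ end of the annotated gene, at the other end of the same interval. The pairs are Gm28447 (list strand plus, chr10:61592158-61592217, annotated end chr10:61591241-61591300), Gm42682 (list strand minus, chr3:102714252-102714311, annotated end chr3:102715457-102715516) and Gm45453 (list strand minus, chr8:22410457-22410516, annotated end chr8:22411250-22411309), all on GRCm38. In each pair AATAAA stood near the end on the list strand, and neither hexamer stood near the end on the annotated strand.
Gm28447, list strand: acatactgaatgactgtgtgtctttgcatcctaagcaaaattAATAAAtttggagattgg
Gm28447, annotated strand: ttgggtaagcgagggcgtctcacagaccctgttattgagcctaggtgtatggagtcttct
Gm42682, list strand: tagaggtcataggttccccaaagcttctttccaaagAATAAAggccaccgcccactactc
Gm42682, annotated strand: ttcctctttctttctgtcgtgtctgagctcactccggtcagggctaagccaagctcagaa
Gm45453, list strand: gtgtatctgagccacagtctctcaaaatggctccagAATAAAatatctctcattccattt
Gm45453, annotated strand: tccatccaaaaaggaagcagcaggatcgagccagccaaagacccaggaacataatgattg

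Single-exon FT transcripts were longer than both other sets. Their median length was 1727 nt (quartiles 1051 and 2582.5 nt, range 30 to 7799 nt), against 1273 nt for multi-exon FT transcripts, summed over exons, and 452 nt for single-exon U transcripts. Of the members 99 were under 200 nt and 329 (4.90%) between 200 and 500 nt, while 51.9% of single-exon U transcripts fell between 200 and 500 nt. A longest transcript of at least 1000 nt was present in 77.8% of single-exon FT loci (Wilson 95% interval 76.7 to 78.8%), 64.6% of multi-exon FT loci and 8.47% of single-exon U loci, where all loci of the list gave 14.4%. Both differences passed a two-sided Fisher exact test (adjusted p = 9e-48 against multi-exon FT and below 1e-300 against single-exon U, Benjamini-Hochberg over the 26 comparisons of shares made here, threshold 0.05). The direction against multi-exon FT depended on the joining of blocks: with no joining, 67.3% of the 3463 loci of 1-block transcripts and 74.7% of the other FT loci reached 1000 nt (adjusted exact p = 9.45e-15).

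**Figure D1:**
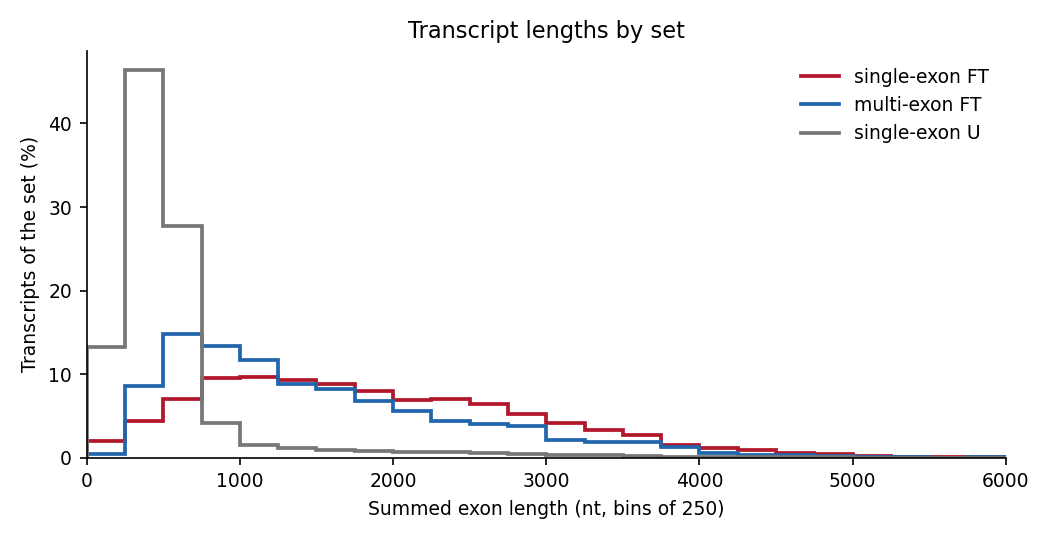
Lengths of single-exon FT, multi-exon FT and single-exon U transcripts, as the percentage of each set in bins of 250 nt of summed exon length. Single-exon FT transcripts spread broadly around their median of 1727 nt, while single-exon U transcripts crowd around 452 nt. Transcripts of 6000 nt or more (7, 2 and 19 in the 3 sets) are outside the axis.

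Many members were deposited as several blocks with small gaps or none between them. Of the 6712 members 3709 (55.3%) were 1 block, and the other 3003 had up to 34 blocks. In 1341 of these the largest gap was 0 bp, so that the blocks abutted, in 986 it was 1 bp, in 572 it was 2 to 9 bp, in 76 it was 10 to 19 bp and in 28 it was 20 to 29 bp. Joining blocks at all decided the place of 3003 members, while the exact limit of 30 bp decided that of few: 11 had a largest gap of 25 to 29 bp (median length 3215 nt) and 6 FT transcripts lay just outside, at 30 to 34 bp (median 2691.5 nt). The deposited score reached its maximum of 1000 in 57.1% of members, 79.8% of those with 1 block and 28.9% of those with several, and in 65.3% of multi-exon FT transcripts. The sources used here do not say how the score was computed.

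Members lay on all chromosomes and on both strands, with 3241 plus-strand and 3471 minus-strand entries, and no interval was present on both. There were 6641 distinct intervals, and 138 transcripts shared an interval with another member. Most loci (5547 of 6061) held 1 transcript and 514 held more, up to 9. The X chromosome carried 3.78% of single-exon FT loci, against 2.61% of multi-exon FT loci (adjusted Fisher exact p = 0.00187) and 4.42% of single-exon U loci (adjusted p = 0.028), with 4.34% for all loci. Without joining of blocks the difference from multi-exon FT missed the threshold (3.58% against 3.11%, adjusted exact p = 0.257).

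The 5 longest members on numbered chromosomes and X were 6387 to 7799 nt long. FT333609, on the minus strand of chromosome 14 (22102035 to 22109833), had 7799 nt in 6 blocks, and FT333581 on the plus strand of the same chromosome (101054978 to 101061750) had 6773 nt. FT333522 on chromosome 18 (3336736 to 3343480) had 6745 nt, FT37410 on chromosome 15 (82683286 to 82689885) 6600 nt and FT333285 on chromosome 3 (77368878 to 77375264) 6387 nt. U transcripts of the same strand covered the whole of FT333609, FT333581 and FT333285, 6.54% of FT333522 and none of FT37410. All positions of named members are on mm9.

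A member could be named where an annotated single-exon transcript on the same chromosome and strand had exactly its length and exactly its distance to a neighbour within 50 kb. The neighbour was a spliced transcript named by its exon and intron lengths, or another single-exon FT transcript with such a candidate. This way of matching named 426 members (6.35%) as 417 genes. Only 2005 members (29.9%) had a spliced neighbour named by its exon and intron lengths within 50 kb, and such neighbours are mostly noncoding genes. How many members were named through a spliced neighbour and how many through another single-exon candidate was not counted. The named members therefore depend on which transcripts nearby are annotated and are not a sample of all members. Of the 417 genes 292 (70.0%) were TEC, a GENCODE class for unspliced clusters of cDNA sequence with polyadenylation features that await experimental testing. Another 56 were processed transcripts, 29 lincRNAs, 17 antisense genes, 14 protein-coding genes (matched through an annotated unspliced transcript of the gene), 4 sense-intronic genes and 5 transcribed pseudogenes, 3 processed and 2 unprocessed. The 292 were 9.07% of the 3219 annotated TEC genes. An identical length and place means that list and annotation describe the same interval, and whether they share a source was not tested.

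The 5 longest named members were 4953 to 5997 nt. Gm43473 on chromosome 3 (150780886 to 150786882) had 5997 nt and lay apart from coding genes. Gm43766 on chromosome 14 (52878486 to 52883902, 5417 nt) is divergent from Chd8, a chromatin remodeller, at 1031 bp. 5730480H06Rik (5405 nt) is an unspliced transcript of a protein-coding gene, Gm45112 (5125 nt) starts 290 bp from Uqcrc2, and D330037F02Rik (4953 nt) lay apart.

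Polyadenylation hexamers, shown in the first set of sequences above, stood near the 3′ ends of named single-exon members less often than near those of named multi-exon FT transcripts. AATAAA or ATTAAA stood in the last 40 bases of 183 of the 404 distinct noncoding annotated transcripts named by single-exon FT transcripts (45.3%, Wilson 95% interval 40.5 to 50.2%), against 1199 of 1864 annotated transcripts that share their 3′ end with a multi-exon FT transcript (64.3%, 62.1 to 66.5%; adjusted Fisher exact p = 5.86e-12). The same window of all 19751 annotated long noncoding transcripts held one in 37.3%, and that of all 3226 annotated single-exon TEC transcripts in 27.9%. Most of the transcripts named by single-exon FT were TEC, while those sharing an end with multi-exon FT were all spliced. The part of this in the difference between them was not tested. Read on the other strand, at the other end of the transcript, the share was 3.71% for the named single-exon members. The first base of the hexamer nearest the end lay a median of 21 bases from the 3′ end (quartiles 19 and 23.75 bases). Among TEC transcripts, which are partly defined by polyadenylation features, 46.3% of the 307 named members and 26.2% of the 2898 that no member matched held a hexamer. This last pair was not tested.

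A share of the single-exon members ran against the strand of the annotation. Searching the opposite strand in the same way gave 55 further members, so that 11.4% of the 481 members with an annotated interval on either strand were annotated on the opposite strand (Wilson 95% interval 8.89 to 14.6%). For spliced FT transcripts the number was 2 of 2515 (0.0795%; adjusted Fisher exact p = 4.58e-42), and for both kinds together 1.9%. The comparison was added after the data were seen. Spliced transcripts were matched by runs of exon and intron lengths and unspliced ones by length and distance, so the ways of matching differ. Splice sites also fix the strand of a spliced transcript, so a very low share was bound to be found there. The p-value therefore cannot say whether the single-exon share is unusual for unspliced transcripts. The 55 genes comprised 28 TEC genes, 17 protein-coding genes, 4 lincRNA genes, 3 sense-intronic genes, 2 processed transcripts and 1 transcribed pseudogene. Protein-coding genes were thus 30.9% of these, against 3.36% of the genes named on the same strand.

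Hexamers at these 55 intervals stood on the strand of the list more often than on that of the annotation, as in the pairs of ends shown for Gm28447, Gm42682 and Gm45453. On the list strand 21 of 55 (38.2%) held a hexamer in the last 40 bases, and on the annotated strand 5 of 55 (9.09%). In 19 intervals the hexamer was on the list strand only and in 3 on the annotated strand only (two-sided exact binomial p = 0.000855). Among the 426 members annotated on their own strand the counts were 191 on the list strand only and 12 on the other strand only (exact binomial p = 1.22e-42). Those members were picked because list and annotation share a strand. Most of their genes are TEC, partly defined by polyadenylation features, so this count is not an independent check. A U transcript of the list strand overlapped 49 of the 55 intervals and one of the annotated strand 7, but 28 of the 55 had a U transcript with the very same start and end.

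**Figure D2:**
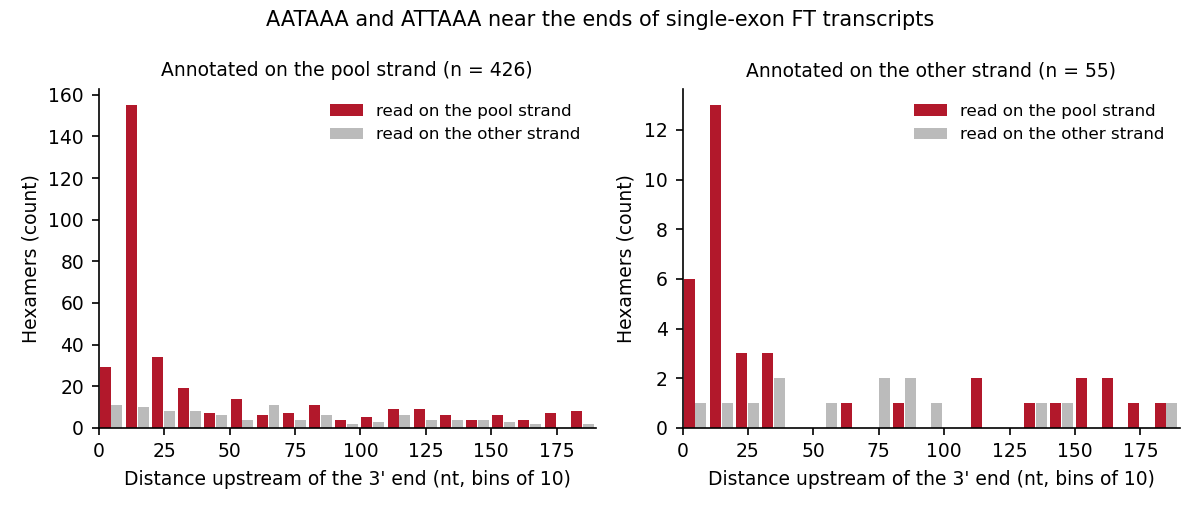
Number of AATAAA and ATTAAA hexamers by distance upstream of the 3′ end, in bins of 10 nt, for members annotated on their own strand (left) and on the opposite strand (right), read on the strand of the list (red) and on the other strand (grey). In both panels the highest count is in the bin from 10 to 20 nt on the list strand, with 155 hexamers on the left and 13 on the right, against 10 and 1 on the other strand. The distance drawn does not run from the first base of the hexamer, so it differs from the distances given in the text for that base.

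The genes named by single-exon FT transcripts were placed against protein-coding genes within the GRCm38 annotation. A gene was called divergent when one of its annotated starts lay within 2 kb upstream of a coding start on the other strand, then antisense, then same-strand when it overlapped a coding gene, and otherwise apart. Of 403 noncoding genes named by single-exon FT transcripts 66 were divergent (16.4%, Wilson 95% interval 13.1 to 20.3%), against 371 of 1977 genes named by multi-exon FT transcripts only (18.8%; adjusted Fisher exact p = 0.301) and 13% of all annotated long noncoding and TEC genes. The difference was −2.39 percentage points and missed the threshold. With only the outermost start of each gene counted, the shares were 9.43% for single-exon FT and 9.26% for multi-exon FT. The antisense class, which leaves out divergent genes, held 91 genes (22.6%), against 28.1% for multi-exon FT (adjusted exact p = 0.0367), with 22.7% over the annotation. The same-strand class, which leaves out divergent and antisense genes, held 15 genes (3.72%), against 0.354% for multi-exon FT (adjusted exact p = 2.49e-07), with 15% over the annotation. Apart were 231 genes (57.3%), against 52.8% for multi-exon FT (adjusted exact p = 0.114), with 49.3% over the annotation.

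Divergent named genes lay close to their coding neighbours, with a median of 166.5 bp between the nearest annotated starts (quartiles 116.25 and 468.25 bp), and 39 of the 66 also overlapped a coding gene of the other strand. The genes in the rest of this paragraph were chosen for their short distances after these were seen. D130020L05Rik lies 15 bp from Ppp4r3a, which encodes a phosphatase regulator, and 2310009A05Rik 19 bp from Pigb, an enzyme of membrane anchor synthesis. D330041H03Rik lies 23 bp from Rnps1, a splicing factor gene. Ptgs2os lies 68 bp from Ptgs2, the inducible cyclooxygenase.

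Among the genes that lay apart, a coding gene of the same strand ended up to 5 kb upstream of 20 of 231 genes named by single-exon FT transcripts (8.66%, Wilson 95% interval 5.67 to 13.0%), against 22 of 1044 for multi-exon FT (2.11%; adjusted Fisher exact p = 1.47e-05), and 3.29% for both together. This comparison was added after the data were seen. Gm42777 started 128 bp past the end of Abcd3, a peroxisomal transporter gene. Gm37786 started 439 bp past Rpf2, a ribosome assembly factor gene, and Gm38103 913 bp past Nkx2-9, a homeobox gene. These genes were chosen after their values were seen. Whether such RNAs continue from the coding transcript was not tested.

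Of the gene lists, 3 coding genes had a divergent gene named by single-exon FT transcripts, and no listed gene had an antisense one without divergence. Among all 21924 annotated coding genes 180 (0.821%) had a divergent or antisense gene of this kind. Distances run from the nearest annotated start of the gene, which need not be the 5′ end of the matched member. Of 30 lineage regulators 2 had such a divergent or antisense gene. Sox17 had Gm37587 at 120 bp, a gene matched by FT326751 (2828 nt, chromosome 1, 4486632 to 4489459). Hand2 had Hand2os1 at 124 bp, a gene matched by FT311186 (2700 nt) and FT310897 (3654 nt) on chromosome 8. Of 25 chromatin and transcription genes 1 had one, Eed, a core subunit of the polycomb complex that methylates histone H3, with E230029C05Rik at 164 bp (FT330961, 2066 nt). None of 30 pluripotency genes, 25 feeder fibroblast genes or 20 housekeeping genes had one. Of the 30 pluripotency genes 2 were overlapped on the same strand by a gene named by single-exon FT transcripts, against 13 of all 21924 annotated coding genes (0.0593%), described without a test. They were Sox2, within the span of the gene Sox2ot (matched by FT310371, 2695 nt, chromosome 3, 34003192 to 34005886), and Otx2, a homeobox gene of early epiblast and brain. Otx2 was overlapped by the gene Gm49154 (matched by FT320558, 1806 nt). These overlaps are of whole annotated genes, and whether the matched members themselves overlap Sox2 or Otx2 was not tested.

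Well-known noncoding genes were touched by single-exon FT transcripts at 11 of 40 listed genes, of which 38 have an annotation entry under the listed name. Overlap was measured against spliced transcripts named as those genes, and 17 of the 40 had such transcripts, so the other genes could show none except by an unspliced match. All 11 were among those 17, while 400 of the 3524 noncoding genes named by spliced transcripts (11.4%) were matched or overlapped in the same way. The spliced transcripts of the listed genes spanned a median of 15892 bp, against 13303.5 bp for all 3524 genes, and both counts are described without a test. Xist, which silences an X chromosome, held 4 members of 518 to 3420 nt on its exons. Jpx, an activator of Xist, held 1 of 738 nt. Neat1, the scaffold of nuclear paraspeckles, held 9 of 1541 to 3179 nt, all on exons of the listed spliced transcripts.

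Among the remaining known genes, Dleu2, a microRNA host, held 5 members of 1557 to 4052 nt, and 1 of them (FT311687) matched an annotated unspliced transcript of the gene. Pvt1, a neighbour of Myc, also held 5, of 917 to 3068 nt. Tug1 held 3 (295 to 1398 nt), Firre, which organises nuclear contacts of the X chromosome, 2 (1347 and 1564 nt), and Lncpint 2 (2165 and 2602 nt), while Six3os1 held 1 of 1076 nt and Sox2ot was the match described above. In Airn the members were all intronic.

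The spliced transcripts named as Airn spanned 118812 bp of chromosome 17 (12934177 to 13052988), with 1 spliced transcript of 3 exons and 842 nt. Airn is the imprinted antisense RNA that silences Igf2r in cis on the paternal allele, and it is known as a mostly unspliced transcript. Its introns held 16 single-exon FT transcripts in 11 loci, of 661 to 5137 nt, from 6984 to 84319 bp past the 5′ end of the host (distances of their starts). With the strand alone, pieces of unspliced Airn RNA and separate transcripts inside its introns cannot be told apart.

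Across the list 479 of 6061 single-exon FT loci lay inside an intron of a spliced transcript of the same strand (7.90%, Wilson 95% interval 7.25 to 8.61%), against 1.10% of multi-exon FT loci (adjusted Fisher exact p = 5.47e-63). The whole locus had to fit inside 1 intron. Multi-exon loci span introns of their own and fit less easily, so structure alone can lower their share. The share of single-exon U loci was 8.06%, a difference of −0.16 percentage points that missed the threshold (adjusted exact p = 0.676). Over all transcripts of the list it was 7.33%. Of the 479 loci 327 lay in introns of 235 named genes, 180 of which held 1 such locus. These hosts comprised 87 lincRNA, 67 antisense, 42 processed transcript and 22 protein-coding genes, 9 immune receptor constant-region genes (8 IG_C and 1 TR_C) and 8 others. The smallest intron around a member had a median length of 23807 bp.

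After 2610307P16Rik and Airn, with 11 loci each, the hosts with the most loci were E130307A14Rik and Pvt1 with 5 each and Sfta3-ps with 4. The spliced transcripts of 2610307P16Rik, a processed transcript gene on the minus strand of chromosome 13, spanned 425389 bp (28551903 to 28977291) and held 13 members of 439 to 4966 nt. In E130307A14Rik on chromosome 10 the members were 999 to 3348 nt long, and in Sfta3-ps on chromosome 12 they were 404 to 2802 nt long.

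**Figure D3:**
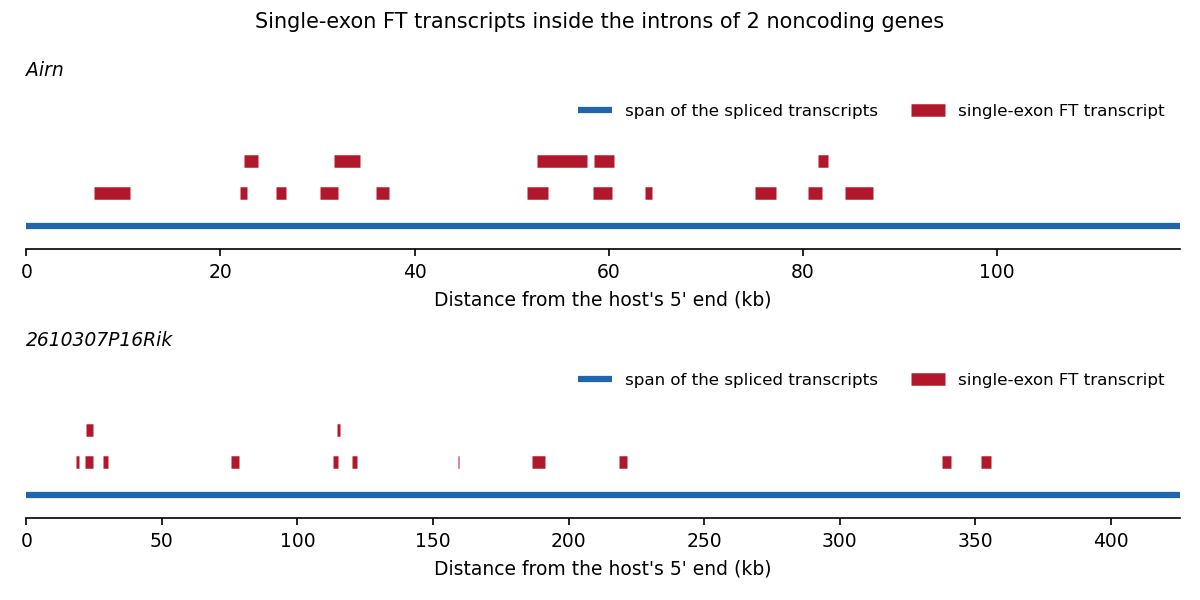
Single-exon FT transcripts (red) inside the introns of Airn and 2610307P16Rik, along the span of the spliced transcripts of each gene (blue), by distance from the 5′ end of the host in kb. The 16 members in Airn start within the first 84319 bp of 118812 bp, and those of 2610307P16Rik are scattered over 425389 bp. Overlapping members are drawn on separate levels.

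Single-exon FT transcripts also lay on exons of spliced entries. Of their 6061 loci 775 (12.8%) overlapped an exon of a spliced transcript of the same strand, against 2.73% of single-exon U loci (adjusted Fisher exact p = 3.78e-234), and 3.53% of both sets together. The 2 sets are unlike in ways that bear on this share. At 632 of the 775 loci the overlapped spliced entries included U transcripts, and single-exon U entries seldom overlapped one another, with 1 transcript in 98.7% of their loci. Their median length was also 452 nt, against 1727 nt for single-exon FT. The part of either in the difference was not tested. In 293 of the 775 the overlap included the first exon and not the last, in 237 the last and not the first, in 217 both and in 28 middle exons only. The spliced entries were U transcripts at 632 loci, FT at 313, BROAD at 176 and WHITEHEAD at 74, and a locus could overlap several. A spliced transcript ended up to 2 kb upstream on the same strand at 4.08% of single-exon FT loci, against 2.11% of multi-exon FT loci (adjusted exact p = 4.28e-08) and 3.61% of single-exon U loci (adjusted p = 0.0846), with 2.97% for all loci. When each locus was put in 1 class, with exon overlap counted before introns and introns before a spliced end upstream, 4751 loci (78.4%) fell in none of the 3.

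The U entries usually covered the same ground. Of the 6712 members 5649 (84.2%) were overlapped by U transcripts of the same strand, 5256 of them by exactly 1, and 4607 (68.6%) were covered over at least 95% of their length. The 5′ ends were identical in 54.3% of all members, the 3′ ends in 48.6%, and both ends lay within 10 bp in 48.0%. A U transcript with exactly the same start and end was present for 2441 members (36.4%), so the U and FT entries are not independent evidence of a transcript. The 1063 members without a U transcript had a median length of 1509 nt, and those with one 1767 nt.

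By locus, U transcripts of the same strand overlapped 83.8% of single-exon FT loci and 95.5% of multi-exon FT loci (adjusted Fisher exact p = 1.1e-81), with 88.6% for both. U transcripts of the opposite strand overlapped 3.94% of single-exon FT loci and 5.91% of multi-exon FT loci (adjusted exact p = 1.06e-05), with 4.75% for both, in a comparison added after the data were seen. Where an overlap of at least 50% of the shorter feature was required, the order turned round, to 2.08% for single-exon FT and 1.56% for multi-exon FT (adjusted exact p = 0.0861). U transcripts lay on the opposite strand only at 100 single-exon FT loci (1.65%) and 23 multi-exon FT loci (0.551%), described without a test.

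**Figure D4:**
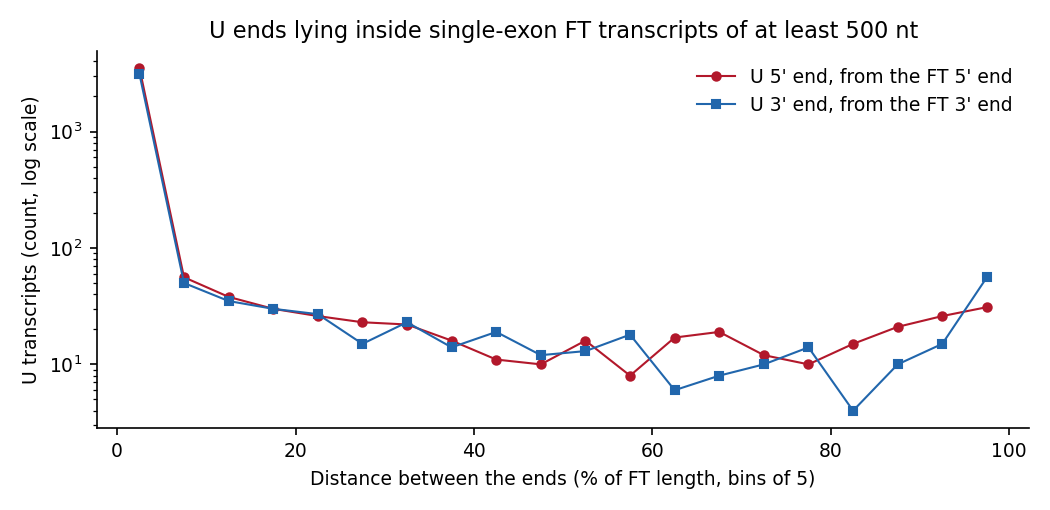
Distance from each end of a single-exon FT transcript of at least 500 nt to the same end of an overlapping single-exon U transcript of its strand, as a percentage of FT length in bins of 5, with the count on a log axis. The bin nearest the FT end holds 3522 of 4911 pairs of an FT and a U transcript for the 5′ end and 3136 for the 3′ end. A U transcript that overlaps several FT transcripts counts once for each. U ends beyond the FT end (982 at the 5′ side and 1396 at the 3′ side) are not drawn.

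Overlap with the opposite strand was present in 447 single-exon FT loci (7.38%, Wilson 95% interval 6.74 to 8.06%), against 998 multi-exon FT loci (23.9%, 22.6 to 25.2%; adjusted Fisher exact p = 1.71e-120), where overlap of spans, introns included, was counted. For single-exon U loci the share was 6.57% (adjusted exact p = 0.027) and for all loci 8.78%. The difference from single-exon U missed the threshold without joining of blocks, with joining below 100 bp, and with overlap of 50% of the shorter feature. Of the 447 loci 306 (68.5%) were overlapped by a spliced transcript, 297 (66.4%) by an exon of the other strand, and 60 (13.4%) by another single-exon FT transcript.

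The study is named for divergent transcription, and head-to-head loci are the form of it that the list itself can show. A partner whose 5′ end faced that of the locus on the other strand up to 2 kb away was present at 359 single-exon FT loci (5.92%, Wilson 95% interval 5.36 to 6.55%), against 5.31% of multi-exon FT loci (adjusted Fisher exact p = 0.209), 5.35% of single-exon U loci (adjusted p = 0.075) and 5.16% of all loci. The differences, 0.61 and 0.58 percentage points, missed the threshold. On numbered chromosomes and X alone the difference from single-exon U passed it (5.92% against 4.73%, adjusted exact p = 0.000105). Within 500 bp the shares were 2.06% for single-exon FT and 2.70% for multi-exon FT (adjusted exact p = 0.0499), and with spliced partners only 1.24% for single-exon FT and 1.94% for multi-exon FT (adjusted p = 0.00836), so the direction against multi-exon FT turned.

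The nearest partner lay a median of 818 bp away (quartiles 342.5 and 1424.5 bp), and 66 of the 359 lay at most 250 bp away. It was spliced for 71 loci, held an FT transcript for 66 and held only U transcripts for 278. Facing 3′ ends up to 2 kb apart were present at 350 loci (5.77%), against 4.95% of multi-exon FT loci (adjusted exact p = 0.09) and 6.53% of single-exon U loci (adjusted p = 0.0299), with 6.15% for all loci. On numbered chromosomes and X the difference from single-exon U was −0.067 percentage points (5.77% against 5.84%, adjusted exact p = 0.898).

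**Figure D5:**
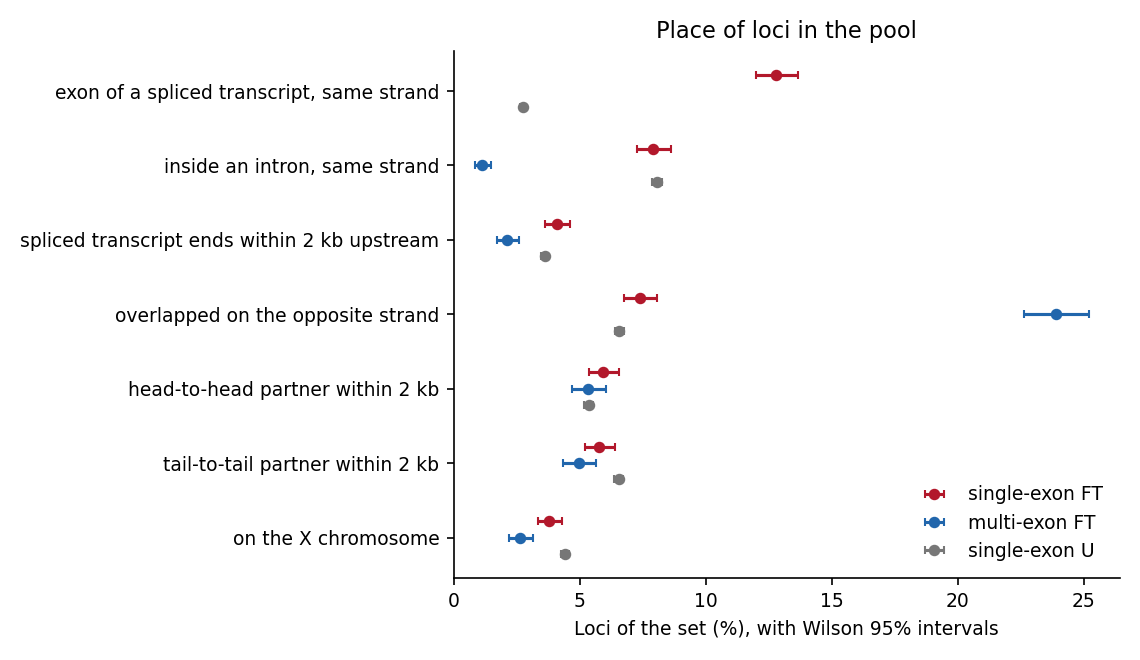
Share of loci with each property for single-exon FT (red), multi-exon FT (blue) and single-exon U (grey), as points with Wilson 95% intervals in percent. Multi-exon FT stands apart in overlap with the opposite strand (23.9% against 7.38% for single-exon FT), and single-exon FT in overlap with spliced exons (12.8%), for which multi-exon FT was not compared. At 632 of the single-exon FT loci with such overlap the spliced entries include U transcripts, and single-exon U transcripts are shorter than single-exon FT transcripts.

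The 5 closest head-to-head pairs with a named, spliced partner had 11 to 159 bp between their 5′ ends, out of 21 pairs of this kind. FT32595 (950 nt, chromosome 2, 132315410 to 132316359) lay 11 bp from 1700026D11Rik, an antisense gene with up to 4 exons. FT36808 (938 nt) lay 116 bp from 1700027F09Rik, FT37662 (4243 nt, chromosome 4, 135178201 to 135182443) 127 bp from 1700029M20Rik, FT33063 (187 nt) 137 bp from 4930481A15Rik and FT32638 (361 nt) 159 bp from 4930443O20Rik. The sequence around the start of the first partner is shown as its RefSeq promoter, 250 bases before to 50 after its annotated start (GRCm38.p6, chr2:132490478-132490777, plus strand), with the motif in capitals. Whether the annotated start and the 5′ end in the list coincide was not tested. The motif TATAAA of the TATA box, the letters CCAAT of the CCAAT box and the letters GGGCGG of the GC box were searched on both strands, and the CCAAT box was the only one present. Of all 32851 RefSeq promoters of this length 13.6% hold TATAAA, 37.4% CCAAT and 35.7% GGGCGG, and of the 89 promoters of genes named by single-exon FT transcripts 14.6%, 39.3% and 33.7%.
1700026D11Rik: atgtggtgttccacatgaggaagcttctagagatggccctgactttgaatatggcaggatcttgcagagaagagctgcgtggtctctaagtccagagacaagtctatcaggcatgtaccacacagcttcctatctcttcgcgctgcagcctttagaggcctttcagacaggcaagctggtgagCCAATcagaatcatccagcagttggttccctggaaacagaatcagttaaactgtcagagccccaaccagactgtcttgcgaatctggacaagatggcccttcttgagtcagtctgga

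Some single-exon FT loci held many entries or lay close together. Another locus of the same set and strand was present within 10 kb of 786 single-exon FT loci (13.0%, Wilson 95% interval 12.1 to 13.8%), against 4.07% of multi-exon FT loci (adjusted Fisher exact p = 8.78e-57) and 52.8% of single-exon U loci (adjusted p below 1e-300), with 47.2% for the 3 sets together. The direction against multi-exon FT turned when each transcript was counted in place of loci (27.7% for single-exon FT against 34.2%, adjusted exact p = 1.34e-13) and, without reaching the threshold, when no blocks were joined (7.97% against 8.38%, adjusted p = 0.535). The sets differ in size (6061 single-exon FT, 4178 multi-exon FT and 69465 single-exon U loci), and the part of this in the shares was not tested.

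The 5 loci with the most members held 6 to 9 each. The locus with 9 was Neat1 on the minus strand of chromosome 19 (5842302 to 5845480), whose members used 5 distinct 5′ ends and 4 distinct 3′ ends within 3179 bp. An unnamed locus on chromosome 3 (89572358 to 89577322, minus strand) held 8 members of 1746 to 3373 nt with 7 distinct 5′ ends and 7 distinct 3′ ends. An unnamed locus on chromosome 7 (66501549 to 66510158, minus strand) also held 8, of 1039 to 6059 nt. C630043F03Rik on chromosome 4 (71862278 to 71864964) held 7 members of 772 to 2677 nt, and an unnamed locus further along the same chromosome (141102074 to 141104087) held 6 of 506 to 2006 nt.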

How the data were processed

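RNA of V6.5 mouse embryonic stem cells went into 1 polyadenylated and 1 ribosomal-depleted library. The submitters' processing notes name TopHat, without a version, and mm9. The authors deposited 1 list of transcripts in BED format, and per the file header it is on mm9 and is an initial pool. The sources used here do not say how entries were assembled or combined. The score column was used as deposited by the authors and only described. Positions, strand and blocks served everything else, and 0 columns of values per sample were left unused. No depth is known. Intervals are Wilson 95% intervals and cover counting error only.

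Blocks with gaps under 30 bp were joined. Two-sided Fisher exact tests compared the shares, with p-values adjusted by Benjamini-Hochberg over 26 comparisons (Python 3.11.15, SciPy 1.17.1, NumPy 2.4.6). Exon overlap was not compared with multi-exon FT as planned, since those are themselves spliced. Names came from GENCODE M21 (GRCm38). Spliced transcripts with at least 3 exons were matched by runs of intron, exon and intron lengths. Single-exon FT transcripts were matched by exact length and exact distance to a neighbour within 50 kb. That neighbour was a named spliced transcript or another single-exon candidate. No coordinate was converted. Sequences near 3′ ends were read from GENCODE transcripts by identifier, and promoters from RefSeq (GRCm38.p6). The procedures were tested on simulated data.

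Regions and genes were named by a fixed rule: the 5 longest members and named members, the 5 fullest loci, the 5 closest head-to-head pairs with a named spliced partner, the 5 intron hosts with most loci, and list genes matched or overlapped. Others are marked in the text. The members and lists were chosen with earlier results of these data known. Alternatives covered joining, unit, chromosomes, length, distances, overlap, matching tolerance and hexamer window.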

Additional observations from a re-analysis of the deposited data

How the results depend on the processing

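No paired analysis was possible because each group is 1 library and the list holds no value per library. Of 151 alternative values, 127 kept their direction and their side of the threshold, 9 fell below it, 3 passed it, 10 changed direction and 2 counts moved by more than 1.5 times. The following are differences in percentage points, single-exon FT minus the set named. With no joining of blocks the members numbered 3709, and the differences were −0.41 for a neighbour within 10 kb, −7.45 for 1000 nt and 0.47 for the X chromosome (multi-exon FT), and 0.17 for opposite-strand overlap, 0.95 for a spliced end upstream and −0.65 for tail-to-tail partners (single-exon U). With gaps under 100 bp joined, tail-to-tail gave 1.17 (multi-exon FT) and −0.64 (U), and opposite-strand overlap 0.65 (U). Counting transcripts gave −6.47 for a neighbour within 10 kb (multi-exon FT). On numbered chromosomes and X, head-to-head gave 1.19 and tail-to-tail −0.067 (both U), and from 200 nt tail-to-tail gave −0.44 (U). Head-to-head gave −0.18 within 1000 bp, −0.64 within 500 bp and −0.70 with spliced partners (multi-exon FT), and −0.073 within 500 bp (U). Tail-to-tail with spliced partners gave −0.20 (multi-exon FT) and −0.29 (U). With 50% overlap, opposite-strand overlap gave 0.33 (U), and U on the opposite strand 0.52 (multi-exon FT). With neighbours within 200 kb 702 members were named. With the outermost start of each gene the divergent class gave 0.17 (multi-exon FT). No joining moves FT transcripts of several blocks into the multi-exon set, and the cause of the other changes was not tested. The lower hexamer share than in multi-exon FT stayed past the threshold under all alternatives tried for it (−18.3 to −11.7), and the share annotated on the opposite strand ranged from 11.4 to 12.7% of named members. Unknown depth keeps every statement to what the list holds, so a property not seen is not shown to be absent from the cells.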

Other observations

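A few members lay outside the autosomes and X. The mitochondrial genome carried 3 (FT326112, 686 nt, minus strand, FT334605, 574 nt, and FT31341, 939 nt, plus strand), and no multi-exon FT or single-exon U transcript. The Y chromosome carried 3 (FT333577 with 57 nt, FT332552 with 130 nt and FT317317 with 739 nt), and unplaced sequence 9, or 0.134% of members, against 3.08% of single-exon U transcripts. These values are given without a test.

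The last 20 bases of the 426 members named on their own strand held a median of 8 adenines, and 39 members (9.15%) had at least 12, among them Pantr2, Dleu2 (FT311687), Hand2os1 (FT311186) and Gm42777. Of the 55 annotated on the opposite strand 8 (14.5%) had at least 12 on the strand of the list. Whether priming inside such stretches placed these ends was not tested. The annotated transcripts of the named members had a median GC content of 44.6% (quartiles 40.6 and 48.1%), against 46.1% (42.6 and 49.3%) for those sharing a 3′ end with multi-exon FT transcripts, described without a test.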
